A study of Mus musculus with 4 samples.

Results

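The interferon-inducible GTPases of the IRG family (Iigp1, Igtp, Irgm1, Irgm2, Tgtp1 and Tgtp2) and of the GBP family (Gbp2, Gbp3 and Gbp7) were followed across stromal cells of mouse bone marrow. These 9 genes, 6 IRG and 3 GBP, were taken by name from the 27998 genes in the count matrices. They were selected on their levels in these same libraries, high in marrow stromal cells of the wild types and lower in those of the models, so the differences between cell types and between libraries given for them are a description and carry no test.

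In marrow mesenchymal stromal cells (MSCs), family transcripts were 4.17-fold lower in NHD13Tg than in WT_A1 and 6.64-fold lower in Abcg2-MDS/AML than in Control. The second fold ranged with the choice of cells from 3.35 (marker thresholds doubled) to 10.8 (at least 4000 UMIs per cell). Iigp1 held most of the family's molecules in all 4 libraries. The summed IRG genes, most of them Iigp1 transcripts, differed more than the summed GBP genes in both pairs, but single members did not all follow that order. In fibroblasts and tendon cells of the same libraries, the summed family differed by less than 1.5-fold in each pair.

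The study holds 4 C57BL/6 libraries of single-cell RNA sequencing, 1 per group. WT_A1 and Control are labelled as wild type. NHD13Tg carries the Nup98-HoxD13 transgene and is set against WT_A1 in the series design, and Abcg2-MDS/AML, an Abcg2-based model of myelodysplastic syndrome and acute myeloid leukaemia, is set against Control. The labels used here give no age, sex, promoter, time point or number of mice for any group. In the published NHD13 line the fusion is driven by Vav regulatory elements, which are active in blood cells. All 4 groups went through the same collagenase digestion of femora and tibiae and the same sort for cells negative for CD45, TER119 and CD31 and positive for CD140a and CD51. With 1 library per group, a difference between libraries cannot be told apart from a difference between genotypes, and every interval below covers counting error only.

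Cells were assigned to types by the UMIs (unique molecular identifiers, each marking 1 captured transcript) of marker genes. The rule for MSCs used Adipoq, Lepr and Esm1, and gave 694 cells in WT_A1 against 1902 in NHD13Tg, and 431 in Control against 189 in Abcg2-MDS/AML. Osteoblasts (Bglap, Bglap2), chondrocytes (Col9a1, Col9a2, Col9a3), fibroblasts (Dpt, Clec3b, Col14a1) and tendon cells (Thbs4, Myoc) served for comparison, and only the 17 profiles of a type in a library with at least 50 cells were used. Of 6 further MSC genes that the rule did not use (Cxcl12, Kitl, Hp, Ebf3, Foxc1 and Ebf1), 5 or 6 were at least 2-fold above all other cells in each library. Their summed level was 27358 CPM (UMIs per 1000000 UMIs summed) in WT_A1 against 31646 in NHD13Tg, and 25627 in Control against 6923 in Abcg2-MDS/AML. The Abcg2-MDS/AML MSCs were thus the fewest, the weakest in these markers and, at a median of 3253 UMIs against 3583 to 4482 in the other libraries, the shallowest. A difference in the kind of cell caught by the rule and a difference in the level within such cells cannot be told apart for this library.

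IRG proteins are GTPases that gather on vacuoles formed around intracellular parasites and bacteria and help to break them open. Irgm1, Irgm2 and Igtp (Irgm3) are regulatory IRGs that sit on the cell's own membranes and hold back the effector IRGs, among them Iigp1 (Irga6) and the Tgtp proteins (Irgb6). GBPs are larger dynamin-like GTPases that coat the same vacuoles and exposed bacterial surfaces. Both families are induced by interferon gamma through JAK-STAT signalling and IRF1, and also respond to type I interferon through the ISGF3 complex.

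The interferon-stimulated response element, bound by ISGF3 and IRF factors, was searched as GAAA, any 2 bases and GAAA, and the gamma-activated site as TTCNNNGAA. Both strands were read in RefSeq promoter windows running from 250 bases before to 50 bases after a gene's start (GRCm38.p6). Of the 9 members, 8 matched an entry; Iigp1 did not. All 8 hold the GAAA pair in at least 1 window, against 3.44% of 32851 windows and 3.99% of 27025 genes. The following 50 bases around the matches are shown because the 8 genes share them. They are printed 5′ to 3′ on the gene's strand, with every match to the GAAA pair or its reverse complement in capitals.
Irgm1, chr11:48871418-48871467, minus strand: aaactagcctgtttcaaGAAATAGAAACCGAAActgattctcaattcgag
Igtp, chr11:58199502-58199551, plus strand: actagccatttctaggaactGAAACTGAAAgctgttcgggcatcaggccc
Irgm2, chr11:58214893-58214942, plus strand: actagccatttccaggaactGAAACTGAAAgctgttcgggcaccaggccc
Tgtp1, chr11:48992294-48992343, minus strand: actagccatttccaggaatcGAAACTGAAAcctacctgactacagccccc
Tgtp2, chr11:49064253-49064302, minus strand: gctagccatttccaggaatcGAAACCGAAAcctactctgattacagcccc
Gbp2, chr3:142620584-142620633, plus strand: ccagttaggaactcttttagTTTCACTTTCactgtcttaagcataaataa
Gbp3, chr3:142559982-142560031, plus strand: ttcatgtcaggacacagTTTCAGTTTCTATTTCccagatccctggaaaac
Gbp7, chr3:142530263-142530312, plus strand: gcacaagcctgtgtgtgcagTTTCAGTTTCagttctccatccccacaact

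The 5 IRG genes shown lie on chromosome 11 and hold the element on the gene's strand, while the 3 GBP genes lie on chromosome 3 and hold it on the other strand. Irgm1 and Gbp3 each hold 2 overlapping matches. The first match begins between 30 and 77 bases before the start over all 8 genes. TTCNNNGAA was found in 5 members (Igtp, Irgm2, Tgtp1, Tgtp2 and Gbp7), against 8.30% of windows and 9.55% of genes. In the 4 IRG genes among these it ends just before the interferon-stimulated element, in the lower-case stretch of the lines above. Gbp3 has a second listed start whose window holds neither sequence. A match is a run of letters and not a measured binding site, and no factor's binding was measured here.

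Iigp1, an effector IRG, was the most abundant member. It stood at 885 CPM in MSCs of WT_A1 against 170.1 in NHD13Tg, and 2060.3 in Control against 266 in Abcg2-MDS/AML. Lists of 4 values below keep this order of libraries. Both wild-type libraries were above both model libraries. The level was 5.20-fold lower in NHD13Tg than in WT_A1 (log2 ratio -2.38, 95% counting interval -2.47 to -2.29) and 7.71-fold lower in Abcg2-MDS/AML than in Control (-2.95, -3.18 to -2.73). Because each UMI stands for the 3′ end of 1 molecule, levels of different genes were compared without division by transcript length.

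The Tgtp genes are the other effector IRGs. Tgtp2 stood at 21.4 CPM in WT_A1 against 3.41 in NHD13Tg, and 27.8 in Control against 9.08 in Abcg2-MDS/AML. It was 6.22-fold lower in NHD13Tg (log2 ratio -2.64, -3.30 to -2.03) and 2.85-fold lower in Abcg2-MDS/AML (-1.51, -3.13 to -0.39), where only 6 UMIs were counted and 1 cell held 50% of them. Tgtp1 gave 2 UMIs in WT_A1, 5 in NHD13Tg and 0 in both other libraries, which for Control allows up to 1.74 CPM. Tgtp1 and Tgtp2 are near-identical copies, and how the authors' counting treats reads that fit both is not given in the sources used here, so the split between them is uncertain. Their sum was 21.95, 3.94, 27.8 and 9.08 CPM in the same order of libraries.

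The regulatory IRGs followed the same order of groups. Irgm1 stood at 70.7 CPM in WT_A1 against 18.0 in NHD13Tg, and 200.2 in Control against 27.2 in Abcg2-MDS/AML, and was 3.93-fold and 7.16-fold lower in the models. Igtp stood at 54.7, 12.03, 84.5 and 6.05 CPM, 4.54-fold and 12.4-fold lower. Irgm2 stood at 27.7, 8.20, 45.1 and 7.57 CPM, 3.37-fold and 5.46-fold lower. All 3 were lower in each model library than in each wild-type library. The Abcg2-MDS/AML values of Igtp and Irgm2 rest on 4 and 5 UMIs, so their log2 intervals run from -5.70 to -2.42 and from -4.24 to -1.29.

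Among the GBPs, Gbp2 was the most abundant, at 124 CPM in WT_A1 against 51.7 in NHD13Tg, and 214 in Control against 60.5 in Abcg2-MDS/AML. It was 2.40-fold lower in NHD13Tg (log2 ratio -1.26, -1.46 to -1.07) and 3.50-fold lower in Abcg2-MDS/AML (-1.81, -2.33 to -1.35), where 1 cell held 52.5% of its UMIs. Gbp3 stood at 24.96, 8.62, 38.8 and 6.05 CPM, 2.89-fold and 5.74-fold lower, the last from 4 UMIs. Gbp7 had the smallest differences in both pairs. It stood at 48.1, 28.7, 77.0 and 30.3 CPM, 1.68-fold lower in NHD13Tg (-0.75, -1.03 to -0.45) and 2.49-fold lower in Abcg2-MDS/AML (-1.32, -2.10 to -0.66).

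**Figure D1:**
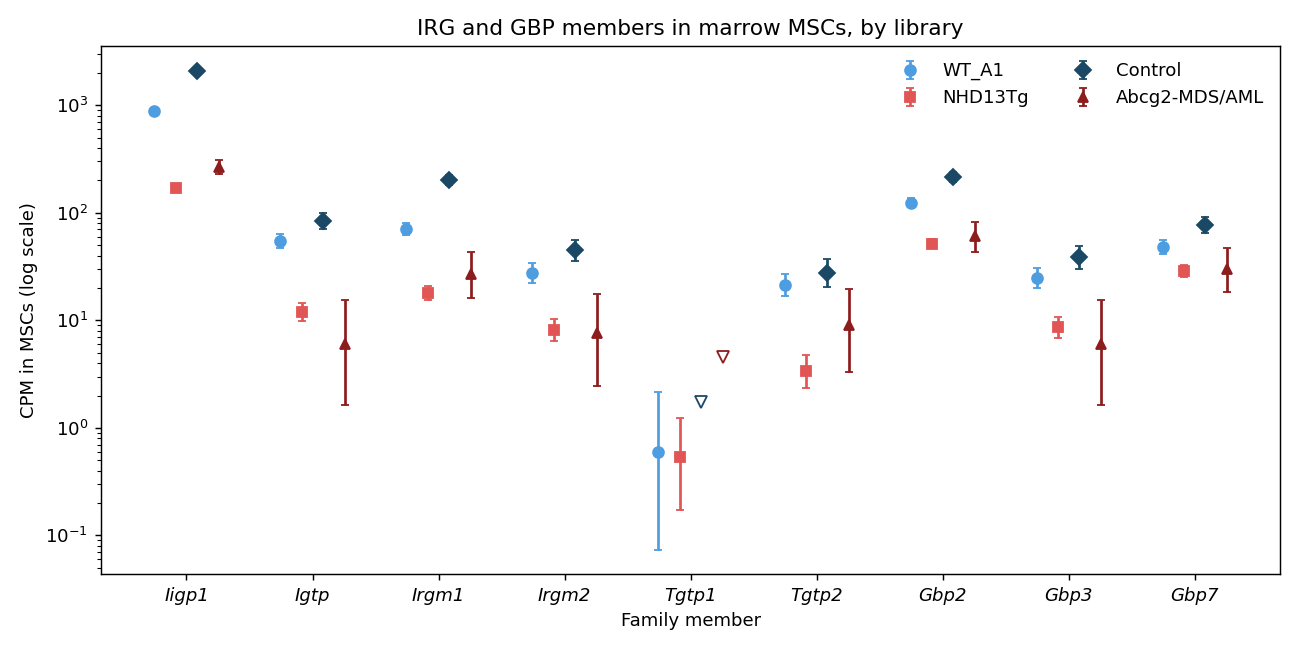
Level of each member in MSCs of the 4 libraries, in CPM on a log axis. Points are summed levels of 1 library with exact Poisson 95% intervals, and open triangles mark libraries with 0 UMIs at the level 3 counts would give. For every member but Tgtp1, both wild-type points lie above both model points.

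By the size rule used here, at least 2-fold apart with a counting interval that leaves out a ratio of 1 among genes reaching 20 CPM on either side of the pair, 7 of the 8 members that reached 20 CPM were lower in NHD13Tg, against 1.93% of all 6169 genes at that level. The eighth was Gbp7. All 8 were lower in Abcg2-MDS/AML, against 12.7% of 6488 genes. No member was higher in either model, against 1.07% and 7.52% of genes. At least 2-fold lower in both pairs were 7 members and 0.926% of genes. The median log2 ratio of these 8 members was -1.86 in the NHD13 pair, where it was -0.05 over all genes, and -2.48 in the Abcg2 pair, where it was -0.11. Tgtp1 stayed under 20 CPM. These contrasts chose the members, so nothing is read from the counts.

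The IRG genes together stood at 1060.1 CPM in WT_A1 against 212 in NHD13Tg, and 2418 in Control against 316 in Abcg2-MDS/AML. The GBP genes together stood at 197, 89.1, 329.9 and 96.9 CPM. The log2 ratio of the summed IRGs was -2.32 (-2.40 to -2.24) in the NHD13 pair and -2.93 (-3.14 to -2.73) in the Abcg2 pair. That of the summed GBPs was -1.15 (-1.30 to -0.997) and -1.76 (-2.16 to -1.39). In each pair the 2 counting intervals did not overlap. In the Abcg2 pair, however, the IRG gene Tgtp2 (2.85-fold lower) differed less than Gbp2 (3.50-fold) and Gbp3 (5.74-fold). The make-up of the family differed with its level: Iigp1 gave 70.4% of family UMIs in WT_A1 against 56.4% in NHD13Tg, and 75.0% in Control against 64.5% in Abcg2-MDS/AML, and Gbp2 gave 9.88%, 17.2%, 7.79% and 14.7%. Without Iigp1, the sum of the other 8 was still 2.84-fold and 4.66-fold lower in the models.

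The 2 wild-type libraries also differed. The summed family was 2.19-fold higher in Control than in WT_A1 (log2 ratio 1.13, 1.07 to 1.19), with 2.83-fold for Irgm1 and 2.33-fold for Iigp1. Between the models it was 1.37-fold higher in Abcg2-MDS/AML than in NHD13Tg. Both differences were smaller than those between model and wild type. Both model libraries lay below both wild-type libraries for 8 of the 9 members (24.8% of all genes), and at least 2-fold below them for 7 (0.703%). The opposite order, found for no member, held for 13.8% of genes and, at 2-fold, for 0.176%. Gbp7 was the one of the 8 that stayed inside 2-fold, with its lowest wild-type level 1.59 times its highest model level.

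The share of MSCs with a family transcript was compared after each cell had been thinned to 2000 UMIs. At that depth, 62.4% of MSCs in WT_A1 (exact binomial 95% interval 58.7 to 66.0%) against 30.3% in NHD13Tg (28.3 to 32.5%), and 78.7% in Control (74.5 to 82.4%) against 29.1% in Abcg2-MDS/AML (22.7 to 36.1%) had a UMI of at least 1 member. For Iigp1 alone the shares were 48.1%, 16.3%, 66.1% and 17.5%, and without thinning 60.1%, 25.6%, 74.5% and 24.3%. Both the share of positive cells and the amount in them were lower in the models. The mean number of Iigp1 UMIs in a positive thinned cell was 3.57 in WT_A1 against 2.13 in NHD13Tg, and 6.14 in Control against 3.15 in Abcg2-MDS/AML. Cells with 5 or more Iigp1 UMIs made up 12.4%, 1.79%, 34.1% and 2.12% of MSCs.

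**Figure D2:**
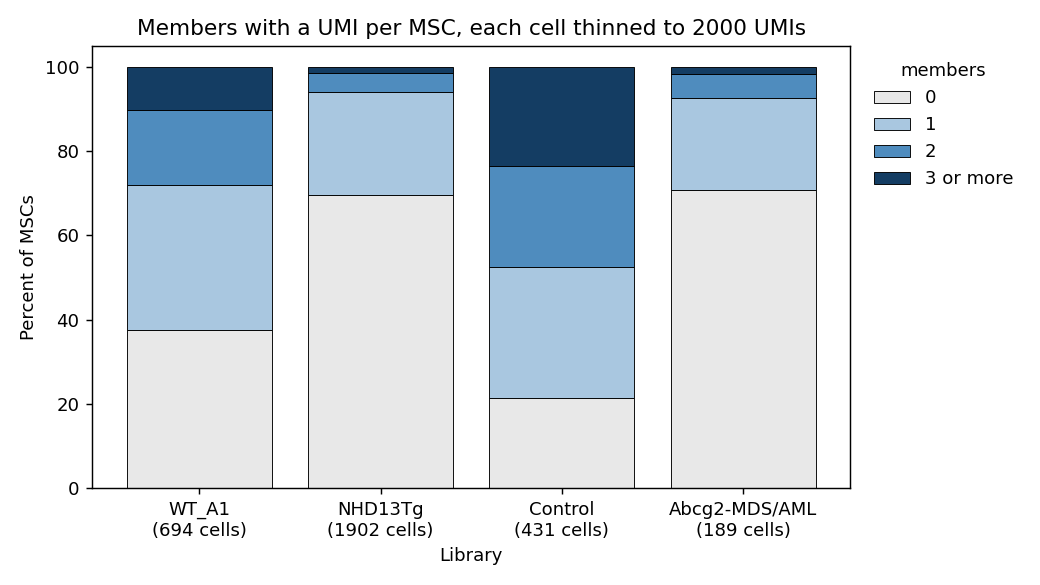
Percent of MSCs with a UMI of 0, 1, 2, or 3 or more of the 9 members, after thinning of every cell to 2000 UMIs, by library. Cells with 3 or more members make up 10.2% of MSCs in WT_A1 and 23.4% in Control, against 1.47% in NHD13Tg and 1.59% in Abcg2-MDS/AML.

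Irgm1, the second IRG by level in MSCs, was also read in MSCs with and without Iigp1. In WT_A1, it was found in 19.5% of thinned MSCs with an Iigp1 UMI and in 5.0% of those without. In Control the shares were 37.2% and 8.22%, in NHD13Tg 5.48% and 3.08%, and in Abcg2-MDS/AML 15.2% and 2.56%. The Abcg2-MDS/AML shares rest on 5 of 33 and 4 of 156 cells. The same shares were not computed over all genes, so nothing particular to Irgm1 is read from them. A single Abcg2-MDS/AML cell held 23.8% of the library's unthinned family UMIs in MSCs, and without the cell richest in these UMIs in each library the pair stood 8.53-fold apart.

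Because Abcg2-MDS/AML MSCs were weak in the rule's own markers, the family was also read by range of marker level, the summed Adipoq, Lepr and Esm1 UMIs per 10000. In cells with 10 to 15, the summed family stood at 957 CPM in WT_A1 against 171 in NHD13Tg, and at 1051 in Control against 220 in Abcg2-MDS/AML, the Control value from 19 cells. In cells with 15 to 30 it stood at 1274 and 317 in the first pair and at 1901 and 560 in the second. In cells with 30 and more it stood at 1329 and 313, and at 3054 and 858, the last from 24 cells. In each marker range of MSCs the model was lower, by 4.02- to 5.60-fold in the NHD13 pair and by 3.39- to 4.78-fold in the Abcg2 pair. The range of 30 and more has no upper limit, so marker level is not matched within it. It held 351 Control cells against the 24 of Abcg2-MDS/AML. The Abcg2 folds are all smaller than the 6.64-fold over all MSCs. In cells with 5 to 10, just under the rule's limit, the folds were 1.55 and 1.56.

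Across cell types, the family was highest in MSCs in every library. The summed level over the 13 profiles of other types ran from 31.6 CPM (osteoblasts of NHD13Tg) to 135 CPM (fibroblasts of Control), all below the 301 CPM of NHD13Tg MSCs. MSCs were at least 2-fold above the other type in 13 of 13 comparisons within a library, from 3.02-fold over fibroblasts in NHD13Tg to 60.3-fold over chondrocytes in Control. Without Iigp1, the sum of the other 8 met this rule in 10 of 13, with a lowest fold of 1.63 over fibroblasts in NHD13Tg. The 3 GBP genes together met it in 11 of 13. The same rule was met in WT_A1 by 35.1% of genes over osteoblasts and 16.6% over fibroblasts and over tendon cells, and in NHD13Tg by 34.5%, 14.2% and 14.6%. In Control it was met by 30.2% over osteoblasts, 26.7% over chondrocytes, 18.1% over fibroblasts and 22.9% over tendon cells, and in Abcg2-MDS/AML by 36.0% over chondrocytes, 12.3% over fibroblasts and 13.0% over tendon cells. Iigp1 ranged from 0.742 to 48.5 CPM outside MSCs, and its MSC level was at least 7.77-fold higher than in each other type of the same library. The lowest of these levels, in WT_A1 osteoblasts, is 1 UMI. Tgtp2 gave at most 3 UMIs in any of the 13 profiles of other types, the 3 being in WT_A1 fibroblasts with 13751314 UMIs of all genes.

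The order of types depended on the member. For Iigp1, Tgtp2, Gbp2 and Gbp7 the lowest MSC library was above the highest profile of any other type, as for 11.4% of all genes with at least 20 CPM in some profile, although for Gbp7 the values were 28.7 and 28.3 CPM and did not differ beyond counting error. Irgm1, at 9.18 to 27.1 CPM outside MSCs, was at least 2-fold higher in MSCs in 7 of 13 comparisons, the fewest of the members other than Tgtp1. In Abcg2-MDS/AML it was 27.2 CPM in MSCs and 27.1 in fibroblasts. Irgm2 met the rule in 8 of 13, Gbp3 in 9, and Igtp and Gbp7 in 10.

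Free RNA, taken as the sum over barcodes with 1 to 100 UMIs, held Iigp1 at 102 CPM in WT_A1 against 41.7 in NHD13Tg, and 74.6 in Control against 35.4 in Abcg2-MDS/AML. Iigp1 in other types lay below this level in 13 of 13 profiles, and the summed family in 11 of 13. Thinned to 2000 UMIs, 0 to 4.04% of cells of other types had an Iigp1 UMI, against 16.3 to 66.1% of MSCs. The share of free RNA within cells is a separate quantity: by genes of types the cells should lack, it was at most 1.48% of UMIs in Control fibroblasts and 0.732% in Abcg2-MDS/AML fibroblasts, where Iigp1 stood at 48.5 and 34.2 CPM. Few cells held it: thinned, 98.6% of Control and 96.0% of Abcg2-MDS/AML fibroblasts had no Iigp1 UMI, and 2 cells in each had 5 or more. Of these fibroblasts, 5 in Control and 16 in Abcg2-MDS/AML also met the MSC rule. Of the profiles used, these upper limits on free RNA were highest in Control, at 12.9% in chondrocytes and 11.1% in tendon cells. There Iigp1 stood at 11.6 and 5.68 CPM. How much of the Iigp1 level outside MSCs is expression was not tested. The MSC level of Iigp1 was 4.08 to 27.6 times that of free RNA, whereas in NHD13Tg Irgm1 and Irgm2 in MSCs were at 0.936 and 0.971 times it.

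**Figure D3:**
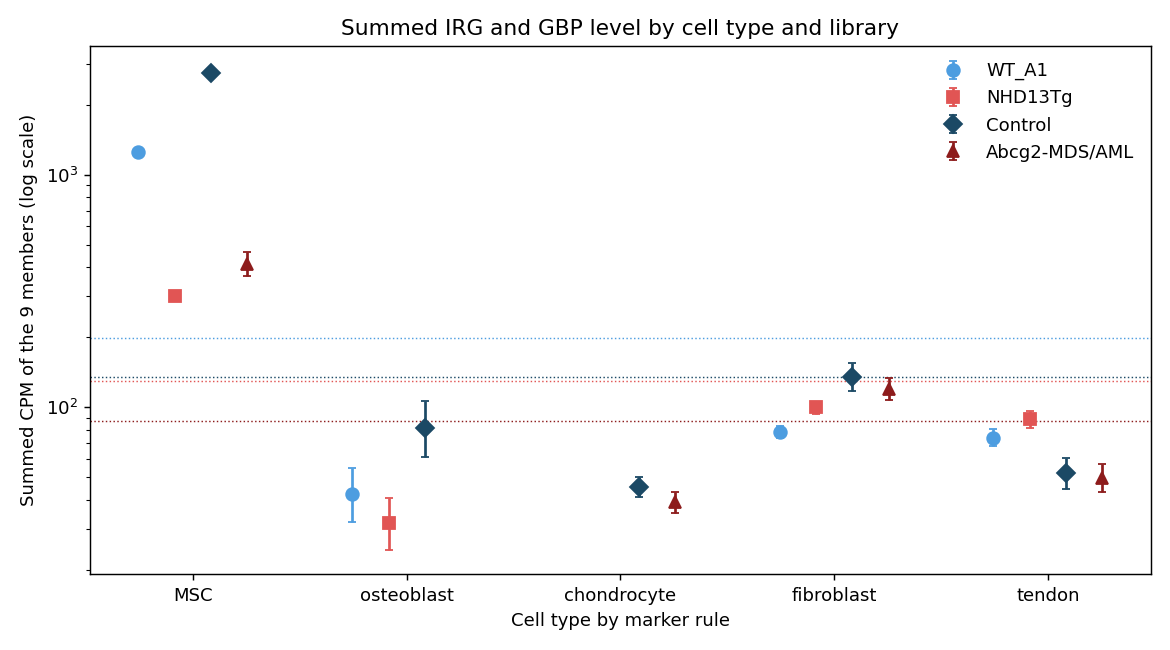
Summed level of the 9 members by cell type and library, in CPM on a log axis, for profiles of at least 50 cells. Points are 1 library each with exact Poisson 95% intervals, and dotted lines give the same sum in free RNA of the library of that colour. The 4 MSC points, at 301 to 2748 CPM, lie above all 13 points of other types, at 31.6 to 135 CPM.

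In fibroblasts, the summed family stood at 78.5 CPM in WT_A1 and 99.8 in NHD13Tg (log2 ratio 0.35, 0.22 to 0.47), and at 135 in Control and 119.9 in Abcg2-MDS/AML (-0.17, -0.42 to 0.08). In tendon cells it stood at 73.9 and 89.0 CPM (0.27, 0.09 to 0.44), and at 52.1 and 49.8 CPM (-0.07, -0.36 to 0.24). The sums were thus a little higher in NHD13Tg and lower by less than counting error in Abcg2-MDS/AML. None of the members with at least 20 CPM, 2 in the NHD13 pair and 4 in the Abcg2 pair, was past 2-fold in fibroblasts, where 0.679% of all genes were lower and 0.375% higher in NHD13Tg, and 13.3% and 6.37% in Abcg2-MDS/AML. In tendon cells neither of the 2 members at 20 CPM was past 2-fold in the NHD13 pair, against 0.785% of genes lower and 0.410% higher. In the Abcg2 pair no member reached 20 CPM there (10.4% of genes lower, 7.27% higher), so no call was possible. In osteoblasts the sum was 42.3 CPM in WT_A1 and 31.6 in NHD13Tg (-0.42, -0.96 to 0.13), with no member at 20 CPM (2.52% of genes lower and 1.51% higher). In chondrocytes it was 45.5 CPM in Control and 38.9 in Abcg2-MDS/AML (-0.23, -0.44 to -0.01), where the median of all genes was -0.30 (14.9% lower, 3.55% higher). The chondrocyte ratio was above 0 under 4 alternatives, between 0.0555 and 0.16. Iigp1 (11.6 and 2.05 CPM) and Igtp (3.91 and 1.30 CPM) were past 2-fold lower in those chondrocytes, but under 20 CPM and below free RNA.

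**Figure D4:**
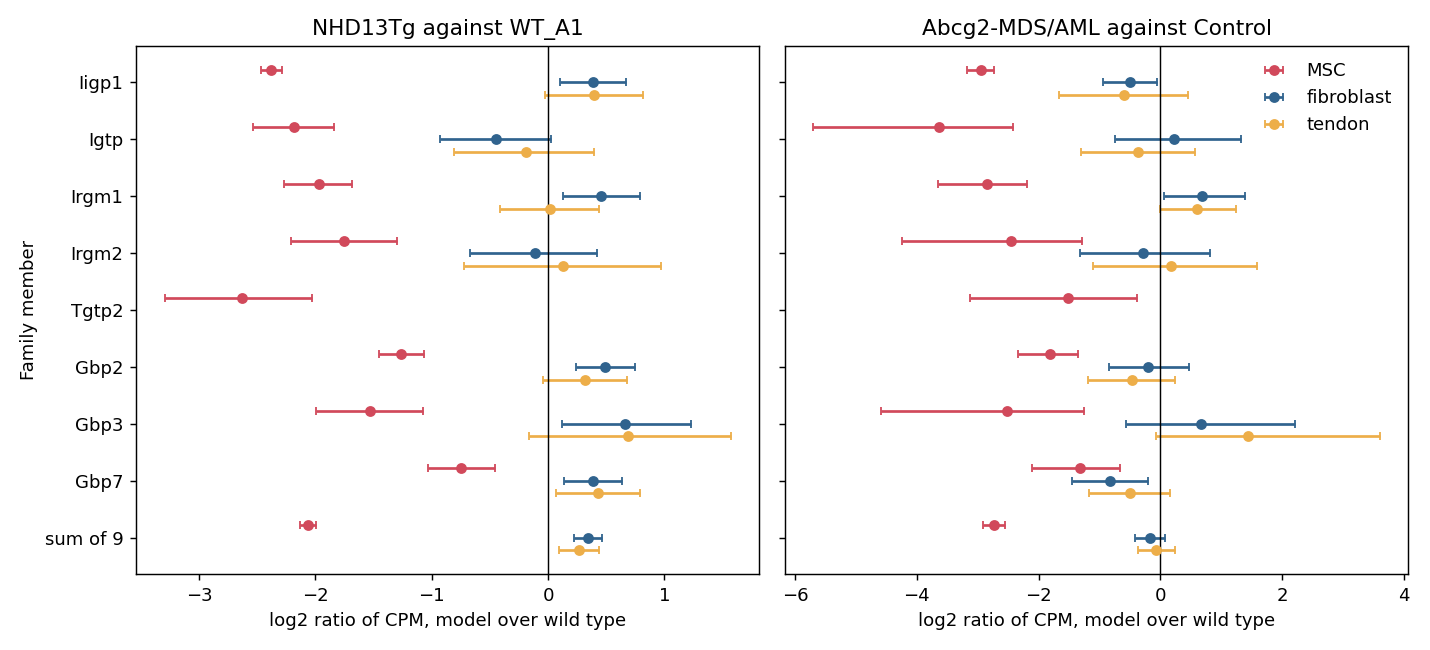
Log2 ratio of CPM, model over wild type, for each member and their sum in MSCs, fibroblasts and tendon cells, with conditional binomial 95% intervals. Members with fewer than 10 UMIs over a pair, and Tgtp1, are not drawn. The sums lie at -2.06 and -2.73 in MSCs and between -0.17 and 0.35 in the other 2 types.

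The fibroblast and tendon labels overlap, and in the NHD13 pair these types share many cells. In WT_A1, 60.8% of tendon cells and 38.3% of fibroblasts also met another type's rule, with 767 cells meeting both rules, and in NHD13Tg 57.3% and 38.4% did, as did 3.25 to 18.5% of MSCs in the 4 libraries. When cells of more than 1 type were left out, the fibroblast sum in the Abcg2 pair was higher in the model (log2 ratio 0.53, 0.19 to 0.89). With the same change the family in MSCs was 4.46-fold lower in NHD13Tg and 5.68-fold lower in Abcg2-MDS/AML.

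Markers of blood and vessel cells also differed between MSCs of the libraries. The 9 macrophage markers summed to 86.9 CPM in WT_A1 against 45.2 in NHD13Tg, and 145 in Control against 15.1 in Abcg2-MDS/AML, with 8, 9, 8 and 2 of them detected and Adgre1 at 0 in all but NHD13Tg. In the same order of libraries, the 6 neutrophil markers summed to 2009, 515, 615 and 0 CPM, and the 6 erythroid markers to 278, 414, 172 and 3.03. The 6 endothelial markers summed to 34.0, 16.4, 19.7 and 15.1 CPM with Cdh5 at 0 in all 4, and the 7 T and NK cell markers gave 3 UMIs, all in NHD13Tg. Genes of other stromal types differed too. In the same order, the tendon genes Thbs4 and Myoc summed to 591, 353, 116 and 1267 CPM in MSCs, with a UMI in 14.3%, 10.7%, 9.98% and 36.5% of cells. The osteoblast genes summed to 72.2, 61.6, 75.2 and 309 CPM, with a UMI in 14.1%, 19.5%, 9.98% and 3.17% of cells. The 309 CPM thus rests on 204 UMIs in 6 cells. The fibroblast genes summed to 207, 138, 38.8 and 199.8 CPM, and the chondrocyte genes to 4.81, 4.15, 219 and 21.2. By CPM, the Abcg2-MDS/AML MSCs held more tendon, osteoblast and fibroblast RNA and less chondrocyte RNA than the Control MSCs. In every profile used of these types, the summed family stood below its MSC level. Without MSCs holding a UMI of a macrophage, T or NK cell, or endothelial marker, the family was 8.89-fold lower in Abcg2-MDS/AML than in Control. The part of neutrophil, erythroid and other stromal RNA in these levels was not tested, beyond the values without cells of more than 1 type.

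Other genes of both families were read from a list of relatives, of which Gbp11 is not analysed here. In this list, a pair of further IRG genes reached the levels of the members. Ifi47, an IRG-related GTPase also at such levels, was listed with the interferon gamma targets and is given below. Gm4951 stood at 212 CPM in MSCs of WT_A1 against 107 in NHD13Tg, and 251 in Control against 42.4 in Abcg2-MDS/AML, just inside 2-fold in the first pair (1.98-fold lower) and 5.83-fold lower in the second. 9930111J21Rik2 stood at 96.5, 10.9, 146 and 22.7 CPM, 8.86-fold and 6.25-fold lower. Irgq, an IRG relative, differed by less than counting error at 6.32, 5.64, 9.26 and 7.57 CPM. Among all genes reaching 5 CPM on either side, the rule used for these lists, 3.45% were lower and 1.37% higher in NHD13Tg, and 10.6% and 6.49% in Abcg2-MDS/AML.

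Of the other GBPs, Gbp5, which takes part in inflammasome responses, stood at 21.4 CPM in WT_A1 against 9.58 in NHD13Tg, and 26.6 in Control against 3.03 in Abcg2-MDS/AML. Gbp6 stood at 6.01, 0.958, 23.1 and 1.51 CPM. Both were past 2-fold lower in both pairs, the Abcg2-MDS/AML values from 2 UMIs (log2 interval -6.22 to -1.20) and 1 UMI (-9.27 to -1.37). Gbp4, Gbp8, Gbp9 and Gbp10 stayed under 5 CPM and Gbp2b had no UMI. The atlastins Atl1, Atl2 and Atl3, dynamin-like GTPases of the endoplasmic reticulum that are not known for interferon induction, did not meet the rule in either pair. Atl1 stood at 7.52 CPM in Control and 1.51 in Abcg2-MDS/AML, the latter 1 UMI, with a log2 interval from -7.72 to 0.42.

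No interferon gamma transcript was found: Ifng gave 0 UMIs in all 21483 cells. The sort kept cells negative for CD45, so blood cells, T and NK cells among them, were largely not sampled. The count therefore says nothing about interferon gamma made by such cells in the marrow. Ifnb1, a type I interferon, gave 4 UMIs in 1 Control cell, and the other 8 interferon genes listed gave none. Of the receptor chains that reached 5 CPM, 0 of 5 were past 2-fold in either pair. Of all genes at that level, 3.45% were lower and 1.37% higher in NHD13Tg, and 10.6% and 6.49% in Abcg2-MDS/AML. A count of 0 of 5 lies near these shares, so nothing particular to receptors is read from it. Ifngr1 stood at 229 CPM in MSCs of WT_A1 against 264 in NHD13Tg, and 221 in Control against 315 in Abcg2-MDS/AML, and Ifngr2 at 94.7, 149, 80.4 and 60.5. Ifnar1 stood at 38.2, 38.0, 34.1 and 45.4 CPM, Ifnar2 at 217, 212, 227 and 176, and Il10rb at 85.1, 79.0, 78.1 and 84.8. Ifnlr1 had no UMI.

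Below the receptors, Stat2, a subunit of ISGF3, stood at 40.6, 13.5, 45.7 and 16.6 CPM, in the same order of libraries as above, 3.002-fold and 2.64-fold lower in the models. Irf9, another ISGF3 subunit, stood at 46.6, 22.04, 41.1 and 25.7 CPM, 2.12-fold lower in NHD13Tg and, with a log2 interval of -1.53 to 0.10, not past the rule in Abcg2-MDS/AML. The kinases Jak1 (329, 310.2, 393 and 236 CPM) and Jak2 (115, 73.1, 83.3 and 75.7 CPM) were past 2-fold in neither pair. The kinase Tyk2, at 6.92, 2.55, 3.47 and 6.05 CPM, was 2.71-fold lower in NHD13Tg (log2 ratio -1.44, -2.32 to -0.55). In the Abcg2 pair it was not past the rule (0.86, -1.47 to 2.88). Stat2, Irf9 and Tyk2 were named after their values were seen. Stat3, which serves IL-6 family receptors, stood at 341, 277, 305 and 274 CPM. Irf1, the factor induced by interferon gamma that drives GBP and IRG genes, stood at 657, 300.1, 961 and 269 CPM, 2.19-fold and 3.56-fold lower. Of 5 IRF genes measured, Irf1 and Irf8 were past 2-fold lower in NHD13Tg, and Irf1, Irf7 and Irf8 in Abcg2-MDS/AML, whereas Irf2 and Irf3 were in neither. The shares of all genes given for the receptors apply to this list as well.

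Of the feedback inhibitors, none of 5 was past 2-fold in NHD13Tg, where 3.45% of all genes at 5 CPM were lower and 1.37% higher. The shares in Abcg2-MDS/AML were 10.6% and 6.49%, and both apply to the target lists below. In Abcg2-MDS/AML, Socs1, which blocks JAK signalling, was 6.90-fold lower, at 40.9 CPM against 287 in Control. Socs3 was 2.66-fold and Usp18 2.68-fold lower, and Pias1 2.15-fold higher. Of the targets listed for type I interferon, 10 of 13 were past 2-fold lower in NHD13Tg and 13 of 15 in Abcg2-MDS/AML, with median log2 ratios of -1.31 and -2.17 (-2.02 with Oasl1, which had no UMI in Abcg2-MDS/AML, at its bound). Of the targets listed for interferon gamma, 4 of 14 and 7 of 13 were lower, with medians of -0.47 and -1.34. No gene of either list was past 2-fold higher.

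Named targets show the spread within these lists. Isg15, a ubiquitin-like protein, stood at 248 CPM in WT_A1 against 80.8 in NHD13Tg, and 515 in Control against 114 in Abcg2-MDS/AML, and Bst2, which tethers virions, at 294, 129, 616 and 110.5. Cxcl10, a chemokine for T cells, stood at 810.2, 178, 2979 and 624 CPM, and Cxcl9 at 408, 150.4, 830.5 and 344. Serping1, the C1 inhibitor, went the other way in the NHD13 pair at 2312 and 3278 CPM, inside 2-fold, and stood at 2013 and 2145 in the Abcg2 pair. Psmb8, an immunoproteasome subunit, stood at 171 and 153 CPM in the NHD13 pair and was 2.72-fold lower in the Abcg2 pair, at 179 and 65.1.

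ATG8 proteins and their conjugation machinery guide IRGs and GBPs to vacuoles. By the size rule, which also asks for a counting interval that leaves out 1, none of these 10 genes was lower in either pair, and the median log2 ratios were -0.02 and 0.03. Map1lc3b stood at 528, 556, 553 and 699 CPM, and Gabarap at 430.4, 455, 415 and 404. Gabarapl1 was the single exception, 3.55-fold higher in Abcg2-MDS/AML at 154 CPM against 43.4. Of 7 sensors measured, 1 was lower in each pair, Mb21d1 (cGAS) in NHD13Tg and Zbp1 in Abcg2-MDS/AML. Of all genes at 5 CPM, 3.45% were lower and 1.37% higher in NHD13Tg, and 10.6% and 6.49% in Abcg2-MDS/AML. In lists of 10 and 7 genes, these counts lie near those shares, so nothing particular to either list is read from them. Mb21d1, Zbp1, Gabarapl1 and Usp18 were named after their values were seen.

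**Figure D5:**
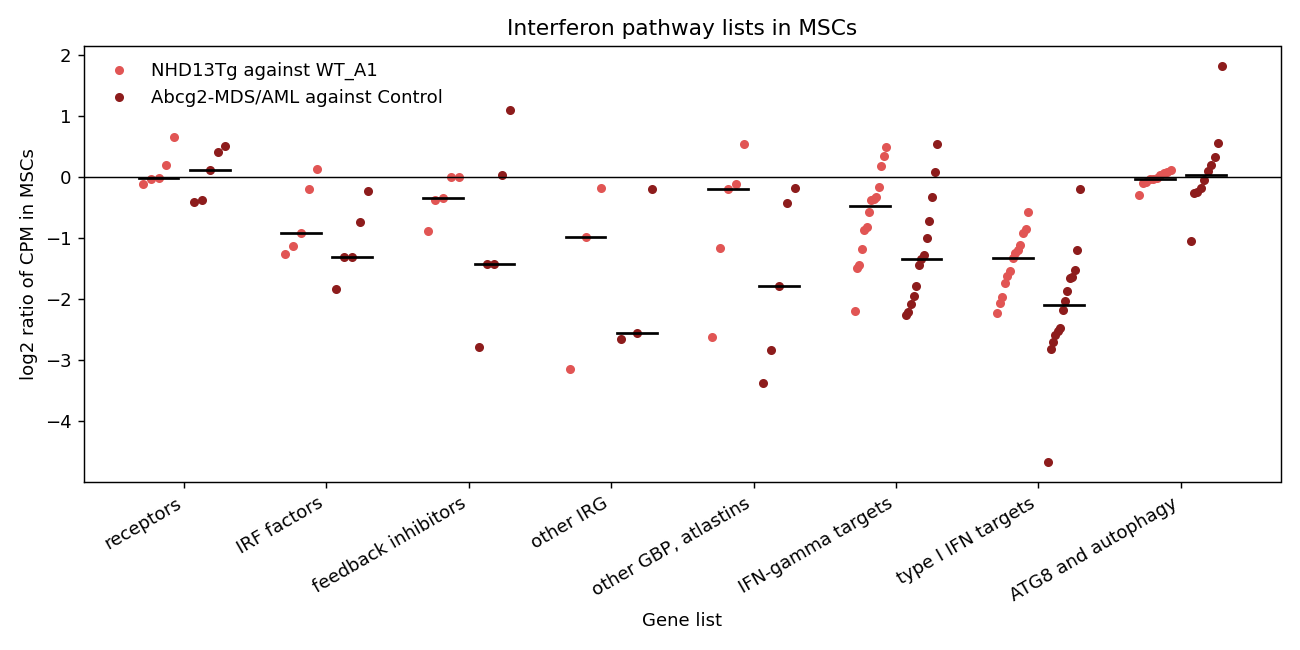
Log2 ratio of CPM in MSCs, model over wild type, for genes of 8 interferon pathway lists that reach 5 CPM on either side of the pair and have at least 1 UMI in the model. Points are genes and black bars medians of the points drawn; receptors and ATG8 genes lie around 0, and targets of type I interferon mostly below -1.

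The genes whose pattern was most like the summed family over the 17 profiles, by Pearson correlation of log2(CPM + 10) among 4506 genes with at least 50 CPM in some profile, were Rtp4 (0.976), Oasl2 (0.974), Rnf213 (0.970), Zc2hc1c (0.966), Isg15 (0.966), Rnd3 (0.963), Parp14 (0.962), Ifi47 (0.955), Cxcl10 (0.953) and Aldh1a2 (0.953). The members and all genes with symbols of Gm and digits or ending in Rik were left out of this ranking. The relatives Gm4951 and 9930111J21Rik2 could therefore not appear in it. The profiles share libraries and depth, and the values are a description. Rtp4, at 58.0, 13.9, 104 and 16.6 CPM in MSCs, stayed under 10.2 CPM in all other types. Ifi47 is itself an IRG-related GTPase, at 87.8, 31.5, 178 and 45.4 CPM in MSCs. Among the members, Iigp1 (0.968), Tgtp2 (0.944) and Gbp3 (0.943) followed the sum of the other 8 most closely over the same profiles, and Irgm2 (0.822) least of the 8 members other than Tgtp1.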

How the data were processed

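Single-cell RNA was measured in 4 sorted stromal libraries, 1 per group, so no test between groups was possible. Each deposited matrix gives UMI counts, whole numbers for every gene and barcode, per the file headers; the authors' processing used Cell Ranger 3.1.0, and Seurat 3.2.3 is named, per the submitters' processing notes. The genome build is not given in the sources used here. The matrices held 36133716 to 46033790 UMIs per library, and 21483 barcodes passed the minimums of 2000 UMIs and 500 genes and the maximum of 10% mitochondrial UMIs. Types needed, per 10000 UMIs, at least 10 (MSC), 100 (osteoblast), 15 (chondrocyte), 8 (fibroblast) or 30 (tendon) marker UMIs, and a cell could meet several rules. Libraries shared 6 to 14 cell barcodes per pair (at most 0.251%), none among MSCs.

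UMIs were summed per type and library and given as CPM with exact Poisson intervals, shares with Clopper-Pearson intervals, and log2 ratios (0.5 added to each count) with conditional binomial intervals, at the 95% level. These cover counting error only. Where all cells of a group had 0 UMIs, the floor is 3 counts. Thinning used a fixed seed. Named list genes are those of highest CPM, up to 4 per list, with all receptors and family relatives; genes outside this rule are marked in the text as named after their values were seen. Members and lists were chosen with earlier results of these data known. No doublets were removed in the main values; Scrublet (scanpy 1.11.5) at its default threshold found only 1 to 3 cells per library. The ratio calculation was tested on simulated data, with independent Poisson counts for each gene. UMIs gathered in single cells were not simulated, so the test does not show that the intervals are wide enough for them. Alternatives covered filters, type rules, doublets, free RNA and scaling (edgeR 4.0.16 in R 4.3.3). Analysis used Python 3.11.15, numpy 2.4.6, scipy 1.17.1 and pandas 2.3.3. A gene of the JAK and STAT list is not reported here.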

Additional observations from a re-analysis of the deposited data

Results flagged for a closer look

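Irgm1, Irgm2 and Gbp3 were lower in the model in MSCs of both pairs and higher in the model in another type in both pairs, which for Irgm2 was tendon cells alone. The difference between types was not tested, because each value comes from 1 library on each side. The share of all genes with such signs was not computed, so nothing particular to these members is read from them. In fibroblasts, Irgm1 had log2 ratios of 0.46 in the NHD13 pair and 0.69 in the Abcg2 pair, Gbp3 had 0.66 in both (0.664 and 0.661), and Irgm2 was lower in the model at -0.12 and -0.29. In tendon cells, Irgm1 had 0.0167 and 0.60, Irgm2 had 0.13 and 0.18, and Gbp3 had 0.69 and 1.44. The counting intervals of Irgm1 in fibroblasts left out 0 in both pairs (0.13 to 0.79 and 0.06 to 1.40). Those of Irgm1 and Irgm2 in tendon cells, and of Gbp3 in tendon cells and in fibroblasts of the Abcg2 pair, included 0. Of the 8 Irgm1 levels behind these ratios, the one above free RNA of its library was that of Abcg2-MDS/AML fibroblasts, at 27.1 CPM against 19.1.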

How the results depend on the processing

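The log2 ratio of the summed family in MSCs was below 0 in all 28 alternative values, from -3.43 to -1.504. In the NHD13 pair it moved to -1.84 with type thresholds halved, -2.16 without cells of more than 1 type, -1.94 with TMM factors and -1.504 without Iigp1. In the Abcg2 pair it moved to -3.43 with at least 4000 UMIs per cell, -1.74 with thresholds doubled, -3.23 with thresholds halved, -2.51 without cells of more than 1 type, -3.09 without the cell richest in family UMIs, -3.15 without cells bearing macrophage, T or NK, or endothelial markers, and -2.22 without Iigp1. Leaving out marker-bearing cells and leaving out Iigp1 were chosen after seeing the data. Members past 2-fold lower in Abcg2-MDS/AML fell from 8 to 5 with thresholds doubled, where 61 MSCs were left. Tgtp2, alone or summed with Tgtp1, reversed to 0.0121 in the Abcg2 pair with at least 4000 UMIs, where 41 MSCs were left. For the summed family in MSCs over another type, all 156 alternative log2 ratios lay between 1.05 and 6.52. Of these, 57 moved outside the counting interval of the main value. Outside MSCs the small ratios of model over wild type were unstable. The fibroblast sum in the NHD13 pair moved to 0.19 with thresholds doubled and 0.0679 as a mean over cells. In the Abcg2 pair it moved to -0.53 with at least 4000 UMIs, 0.53 without cells of more than 1 type, 0.49 without the highest doublet scores, 0.0873 with TMM factors, 0.11 without the richest cell and 0.17 as a mean over cells. The tendon sum moved to -0.0248 without cells of more than 1 type and 0.0207 as a mean over cells in the NHD13 pair, and to 0.26 without cells of more than 1 type in the Abcg2 pair. The chondrocyte sum reversed to 0.0555 without cells of more than 1 type, 0.12 without the highest doublet scores, 0.16 with TMM factors and 0.15 with free RNA subtracted. For these changes the cause was not tested. No paired analysis was possible because each group is 1 library. Depth limits Igtp, Irgm2, Tgtp2 and Gbp3 in Abcg2-MDS/AML MSCs, each at 4 to 6 UMIs.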

Other observations

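The cell with Ifnb1 UMIs, the only one in the 4 libraries, was a Control cell of 18508 UMIs and 3433 genes that met no type rule. It held 4 Ifnb1 UMIs, 1 Cxcl10 UMI, 1 UMI of the 9 family members and none of Iigp1, Ccl5 or Ifit1. Cells that met no type rule made up 8889 of the 21483 cells, and their summed family level was 73.7 CPM in WT_A1 against 73.8 in NHD13Tg, and 42.4 in Control against 73.4 in Abcg2-MDS/AML. Of this, Iigp1 in Abcg2-MDS/AML stood at 26.5 CPM against 4.17 in Control, 6.34-fold higher (log2 ratio 2.67, 2.35 to 3.002), and in NHD13Tg at 16.3 against 21.96 in WT_A1. These Iigp1 levels all lay below free RNA of their library. The 6 IRG genes together were 2.40-fold higher in Abcg2-MDS/AML, and the 3 GBP genes together stood at 20.9 CPM against 20.5 in Control. Within that sum, Gbp2 was 3.04-fold higher in Abcg2-MDS/AML (9.55 CPM against 3.14). Gbp3 (2.60 against 4.83) and Gbp7 (8.71 against 12.5) were lower, inside 2-fold. Shares of all genes were not computed for these cells, so nothing particular to the family is read from these values. Among cells without a UMI of Adipoq, Lepr or Esm1, the family was higher in the models, at 67.3 CPM in NHD13Tg against 59.8 in WT_A1 and 55.0 in Abcg2-MDS/AML against 39.5 in Control. In cells with some of these UMIs but under 5 per 10000, it stood at 87.9 against 85.2 and at 117 against 63.6.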
